A study of Saccharomyces cerevisiae with 12 samples.

Results

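Of the 12 arrays in the series, 6 carried RNA from cells in rapamycin, and they set the strain that lacks *TUP1* (*tup1Δ*, 2 arrays) against wild type (WT, 4 arrays) under the same drug. Members were chosen by the treatment and genotype given for each array, with no measured value used. WT was the laboratory strain BY4741, a *MATa* haploid with *his3Δ1*, *leu2Δ0*, *met15Δ0* and *ura3Δ0*, and *tup1Δ* was the strain of the yeast deletion collection in the same background, so both strains shared those 4 marker mutations and *tup1Δ* stood for 1 deletion strain. Cells in YPD at mid-log phase received 100 nM rapamycin for 30 min at 30°C, and the other 6 arrays, 4 of WT and 2 of *tup1Δ*, came from cells that received 0.1% DMSO, the solvent. Each WT culture was divided between the treatments, the 2 *tup1Δ* arrays came from 2 separate cultures, and RNA was read on 1-color NimbleGen arrays as 1 log2 value per gene. The comparison asks which genes depended on Tup1 once rapamycin was present.

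Tup1 binds no specific DNA sequence by itself. With its partner Cyc8 it forms a co-repressor that DNA-binding repressors such as Mig1, Nrg1, Rox1 and Sko1 bring to their targets, among them genes for sugar use, low oxygen, cell adhesion and stress. Rapamycin blocks the kinase complex TORC1, which in rich medium promotes ribosome production and holds back genes for poor nitrogen sources and for stress.

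The values ran from 7.85 to 15.52, so a gene near 8 lay at the low end of the scale and its fold change is understated if the true level is lower still. A gene was called when its Benjamini-Hochberg adjusted p in limma was under 0.05 and its log2 fold change, *tup1Δ* over WT, was at least 1 in either direction. All fold changes below are on the log2 scale, and all adjusted p-values are from that limma fit over 5769 genes. With 2 arrays against 4, an exact permutation test of a single gene could not fall below a one-sided p of 0.0667, or 0.133 when doubled for both directions. Among the WT arrays in rapamycin, the SD of the differences over genes was 0.0643 between replicates 3 and 4, 0.214 between replicates 1 and 2, and 0.243 to 0.268 between arrays of different pairs. It was 0.132 between the *tup1Δ* arrays and 0.558 to 0.594 between the strains.

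The strain labels were borne out by the deleted gene. *TUP1* (YCR084C, chromosome III) read 13.90, 13.93, 13.69 and 13.66 on the 4 WT arrays in rapamycin and 8.23 and 7.95 on the *tup1Δ* arrays, which is -5.70 (standard error 0.10, adjusted p = 4.94e-12) as a log2 fold change. Its *tup1Δ* values were at the low end of the scale and far from those of WT. The gene beside it, *TRX3* (YCR083W), which encodes a mitochondrial thioredoxin, read 9.60, 9.33, 9.26 and 9.22 in WT and 10.07 and 9.93 in *tup1Δ* and was not called, with a fold change of 0.65 (standard error 0.16, adjusted p = 0.0088). The partner *CYC8* differed by 0.02 between the strains (adjusted p = 0.797). Of the BY4741 markers, *LEU2*, *URA3* and *MET17*, the current name of *MET15*, lay between 7.85 and 8.06 on all 6 arrays, while *HIS3*, of which the *his3Δ1* allele removes only a part, read 13.23, 13.17, 13.66 and 13.49 in WT and 13.25 and 13.36 in *tup1Δ*. Genes that mark *MATa* cells were present in both strains, with *STE2*, the receptor for alpha factor, at 14.16, 14.12, 14.20 and 14.05 in WT and 13.79 and 13.70 in *tup1Δ*. The alpha-cell genes *STE3* and *MF(ALPHA)1* stayed at or under 8.21 in both strains, whereas *SAG1*, the alpha-cell agglutinin, read 12.53, 12.49, 12.66 and 12.61 in WT and 11.97 and 11.80 in *tup1Δ*.

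In rapamycin, 311 of 5769 genes (5.39%) were called between the strains. Of these, 261 (4.52% of all genes) were higher in *tup1Δ* and 50 (0.867%) were lower, *TUP1* among them, so 83.9% of the calls were rises. The rises were also the larger changes: 91 of them reached a log2 fold change of 2, 27 reached 3 and 6 reached 4, while 7 of the falls went to -2 or below. The RMA normalization levels the distribution of the arrays, which hides any shift common to all genes, and in RNA from whole cultures fewer cells with a transcript and less transcript per cell cannot be told apart. The median fold change was 1.64 over the rises, -1.15 over the falls and -0.09 over all genes. Of the 261 rises, 141 (54.0%) came from the 25% of genes with the lowest WT mean, compared with 3 of the 50 falls. The values of the strains did not overlap in any of the 311 called genes, but this was also so for 59.4% of all genes. Without the fold threshold, the balance turned, with 934 genes higher and 1585 lower at an adjusted p under 0.05.

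**Figure D1:**
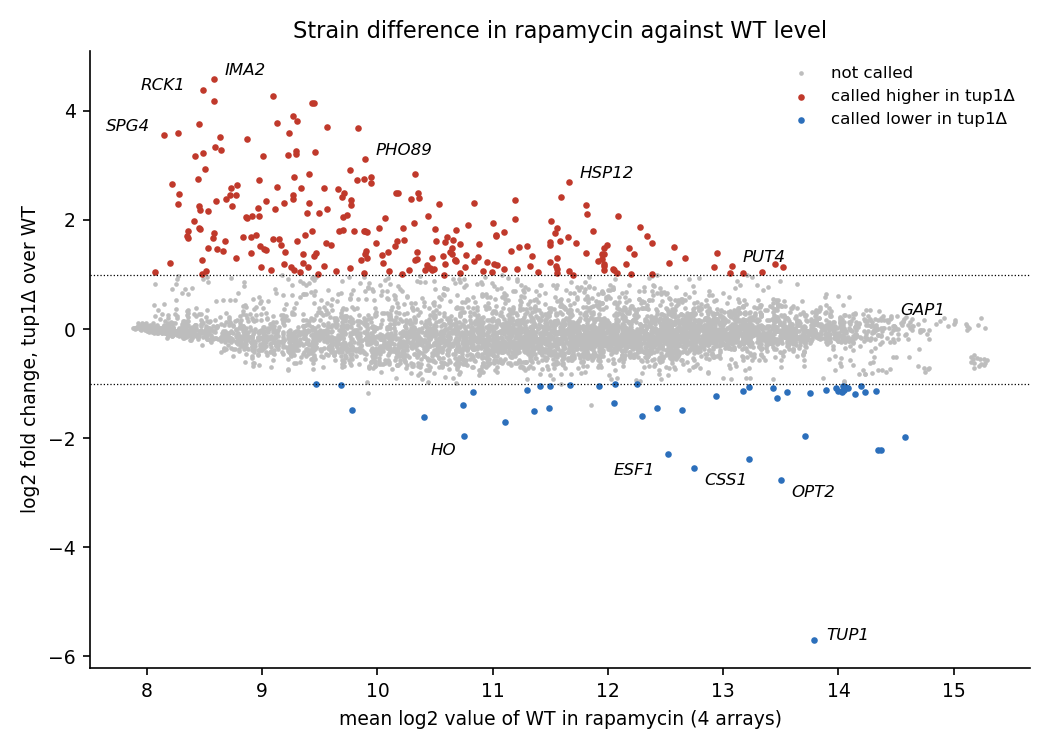
Log2 fold change of *tup1Δ* over WT in rapamycin (y axis) against the mean log2 value of the 4 WT arrays in rapamycin (x axis), 1 point per gene for 5769 genes, with dotted lines at the fold threshold of 1. The 261 called rises (red) lie mostly at low WT levels, and the 50 called falls (blue) mostly at middle and high levels.

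Sugar-use genes made up much of the top of the list. *IMA2* (YOL157C, chromosome XV), an isomaltase that splits isomaltose, read 8.53, 8.63, 8.61 and 8.56 in WT and 13.15 and 13.19 in *tup1Δ*, the largest rise of all at 4.59 (standard error 0.05, adjusted p = 5.77e-13), or 24.1-fold. No WT array came near the *tup1Δ* arrays. *IMA3* rose by 4.27 and *IMA1* by 3.59, and the maltases *MAL12* (YGR292W) and *MAL32* (YBR299W) by 4.15 and 4.14. Of the 11 maltose and isomaltase genes measured, 9 were higher and 0 lower, with a median of 2.66. For this and the list counts below, the shares over all genes in rapamycin were 4.52% higher and 0.867% lower. The maltose permease gene family member *MPH2* was not called, at -0.18. The copies of these families are nearly identical, and because they may share probes, the value of each copy alone is uncertain.

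Hexose transporters followed at smaller sizes, with 8 of 16 higher, 0 lower and a median of 0.96. *HXT4* (YHR092C), a high-affinity glucose transporter, read 9.97, 9.99, 9.62 and 9.47 in WT and 12.75 and 12.60 in *tup1Δ*, a rise of 2.91 (standard error 0.15, adjusted p = 4.18e-08). The strains were well apart, although WT replicates 1 and 2 sat above replicates 3 and 4. *HXT13* rose by 1.80, *HXT8* by 1.78 and *HXT5* by 1.58, whereas *HXT14* stayed near the bottom of the scale in both strains. Of 21 genes for other carbon sources that glucose represses, 8 were higher and 0 lower, with a median of 0.76, and 5 were higher against WT replicates 1 and 2 alone. *PCK1* (YKR097W), the phosphoenolpyruvate carboxykinase of gluconeogenesis, read 8.68, 8.67, 8.71 and 8.84 in WT and 11.37 and 11.26 in *tup1Δ*, a rise of 2.59. The lactate and pyruvate permease *JEN1* rose by 1.78, the activator *CAT8* by 1.48, and *REG2*, a regulatory subunit of the phosphatase Glc7, by 1.44. The galactokinase *GAL1* read 9.09, 9.08, 9.13 and 9.12 in WT and 9.14 and 9.06 in *tup1Δ*, with the values of the strains interleaved.

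Cell wall genes of low oxygen and cold rose with them. *DAN1* (YJR150C), a mannoprotein of anaerobic cells, read 8.91, 8.72, 8.33 and 8.35 in WT and 12.83 and 12.68 in *tup1Δ*, a rise of 4.18 (standard error 0.28, adjusted p = 5.04e-07). In WT the first pair of replicates was higher than the second, and the rise was 3.94 against replicates 1 and 2 alone and 4.41 against 3 and 4 alone. Of the 8 *DAN* and *TIR* genes, 7 were higher and 0 lower, with a median of 1.83, led after *DAN1* by *TIR4* at 2.67, *PAU24* at 2.40 and *TIR2* at 2.13. The exception was *PAU23*, which read 10.36, 10.32, 10.54 and 10.53 in WT and 10.31 and 10.28 in *tup1Δ*. The seripauperins, small cell wall proteins of one large family, had 14 of 21 members higher and 0 lower and a median of 1.43, with *PAU9* at 2.50, *PAU5* at 2.22 and *PAU12* at 1.81. *PAU23* and *PAU24* belong to both lists, and the near-identical members of the family may share probes.

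The hypoxic genes repressed through Rox1 were divided. *CYC7*, the low-oxygen form of cytochrome c, read 8.97, 8.88, 9.04 and 8.98 in WT and 11.69 and 11.73 in *tup1Δ* and rose by 2.74 (standard error 0.07, adjusted p = 6.85e-11). *HEM13* of heme synthesis rose by 1.25, *ANB1*, a form of translation factor eIF5A, by 1.20, or 0.98 against WT replicates 3 and 4 alone, and the ADP/ATP carrier *AAC3* by 1.07, or 0.95 without *tup1Δ* replicate 1. The other 6 of the 10 lay between 0.07 and 0.19, with the fatty acid desaturase *OLE1* at 0.07, so the list's median was 0.18. Of 7 genes for flocculation, the clumping of cells through wall adhesins, 4 were higher and 0 lower, with a median of 1.60. *FLO10* read 9.77, 9.80, 9.90 and 10.04 in WT and 12.66 and 12.60 in *tup1Δ*, a rise of 2.75, and *FLO1*, *FLO5* and *FLO9*, which are close copies of each other, rose by 2.50, 1.83 and 1.60. *FLO8* of the same list was not called, at -0.35 (adjusted p = 0.0673).

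Repressors that bring Tup1-Cyc8 to DNA were themselves among the rises. Of 17 genes for Cyc8 and the recruiting factors, 6 were higher and 0 lower, with a median of 0.58. *SUT1* (YGL162W), a factor of sterol uptake and hypoxic genes, read 9.68, 9.64, 9.72 and 9.76 in WT and 11.72 and 11.80 in *tup1Δ*, a rise of 2.06 (standard error 0.06, adjusted p = 2.83e-10). The glucose-dependent repressors *NRG1* and *NRG2* rose by 1.82 and 1.41, and *CIN5*, a factor of the Yap family with a part in salt tolerance, by 1.60.

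**Figure D2:**
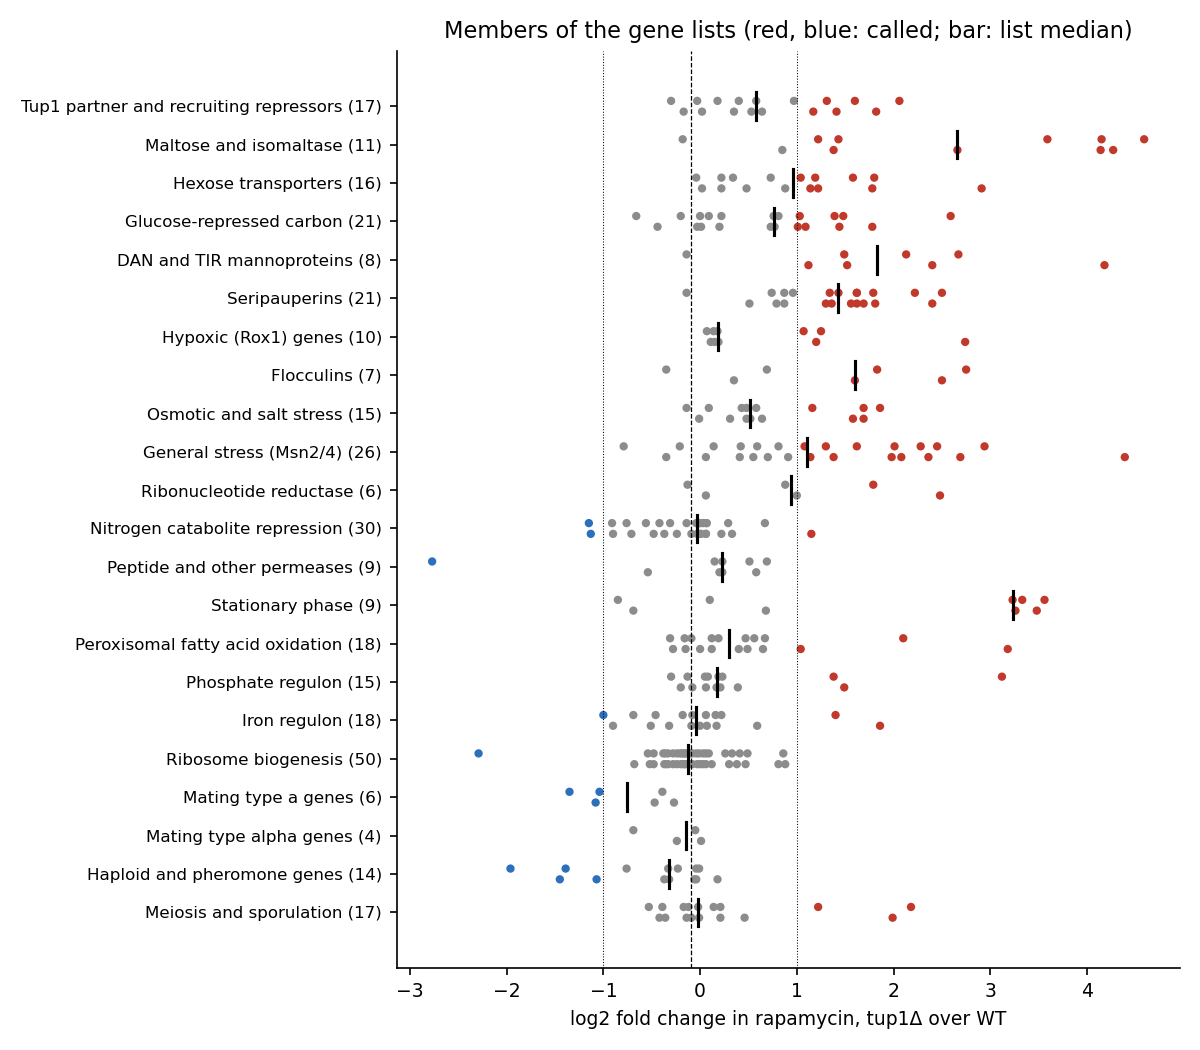
Log2 fold change of *tup1Δ* over WT in rapamycin (x axis) for each measured member of 22 gene lists (rows, members measured in parentheses), with called rises in red, called falls in blue, the list median as a bar and the median of all genes, -0.09, as a dashed line. The maltose, general stress and *DAN*/*TIR* lists reach furthest to the right, to 4.59, 4.39 and 4.18, and the a-cell list has its median at -0.76.

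Stress genes gave the second largest single rise. *RCK1* (YGL158W), a protein kinase of the oxidative stress response, read 8.40, 8.41, 8.62 and 8.54 in WT and 12.83 and 12.93 in *tup1Δ*, a rise of 4.39 (standard error 0.07, adjusted p = 3.35e-12). Of 26 genes of the general stress response, which Msn2 and Msn4 activate, 14 were higher and 0 lower, with a median of 1.11. *GAC1*, which directs the phosphatase Glc7 to glycogen synthase, rose by 2.94, and *SPI1*, a cell wall protein, by 2.45. *HSP12* (YFL014W), a small membrane-bound stress protein, read 11.12, 11.87, 11.86 and 11.80 in WT, with replicate 1 below the others, and 14.31 and 14.40 in *tup1Δ*. Its rise was 2.69 (standard error 0.18, adjusted p = 6.24e-07) with all WT arrays and 2.51 without replicate 1. The mitochondrial chaperone *HSP78* read 12.65, 12.71, 12.41 and 12.44 in WT and 12.59 and 12.63 in *tup1Δ*, which overlapped.

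Of 15 osmotic and salt stress genes, 5 were higher and 0 lower, with a median of 0.52. The largest were *GRE1*, at 1.86, *GRE2*, a methylglyoxal reductase, at 1.69, *RTC3*, at 1.69, and *MSC1*, at 1.58. For DNA precursors, 2 of 6 genes were higher and 0 lower, with a median of 0.94: *HUG1*, a small inhibitor of ribonucleotide reductase, read 8.31, 8.20, 8.31 and 8.28 in WT and 10.79 and 10.72 in *tup1Δ* and rose by 2.48, and *RNR3*, the inducible large subunit, rose by 1.79. The main large subunit, *RNR1*, was at 0.06.

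Several further genes were among the 15 largest rises and belonged to none of the lists. *TMA10*, whose product associates with ribosomes, rose by 3.91, *PHM7* by 3.81, YNL195C by 3.78 and *FMP48*, a putative protein kinase, by 3.76. The mannitol dehydrogenases *DSF1* and *MAN2*, a pair of near-identical genes, rose by 3.70 and 3.68. *OYE3*, an NADPH oxidoreductase of the old yellow enzyme family, read 8.25, 8.19, 8.32 and 8.31 in WT and 11.93 and 11.79 in *tup1Δ*, a rise of 3.59. All 7 of these genes had WT values between 8.19 and 9.92.

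In DMSO, the same strains differed in 264 genes (4.58%), 238 of them higher in *tup1Δ* (4.13%) and 26 lower (0.451%). The DMSO and rapamycin comparisons used different arrays, but the WT arrays came from the same cultures. In both treatments, 200 genes were called in the same direction, 179 higher and 21 lower, and 0 were called in opposite directions. They made up 64.3% of the rapamycin calls and 75.8% of the DMSO calls. Whether a strain difference itself changed with the drug was tested as the difference between these fold changes (the interaction term of the fit), which was called in 67 genes (1.16%), 45 with the larger value in rapamycin (0.78%) and 22 with the smaller (0.381%). Of the 111 genes called in rapamycin and not in DMSO, 33 were also called for that difference, 26 of the rises and 7 of the falls. The other 78 were not called for that difference, though some passed its p threshold at a smaller size. Among them were *MSC1* at 0.97 (adjusted p = 0.0106) and *GDH2* at -0.88 (adjusted p = 0.00835), while others such as *UPA1* (adjusted p = 0.155) did not pass.

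**Figure D3:**
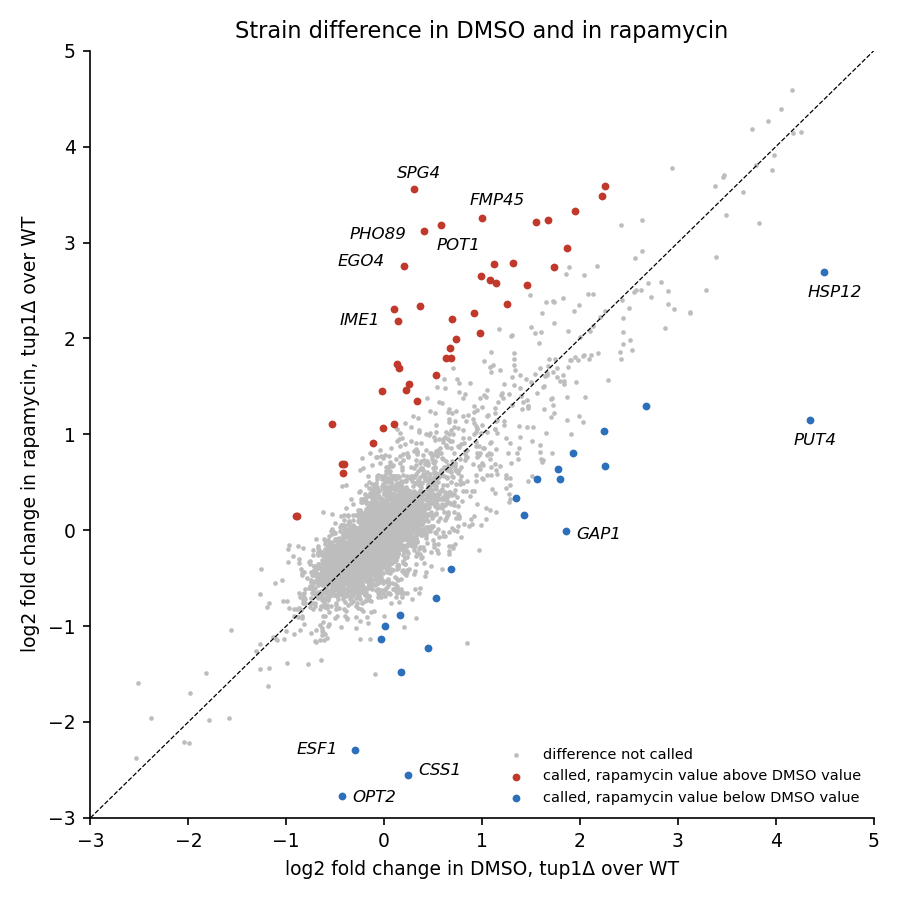
Log2 fold change of *tup1Δ* over WT in rapamycin (y axis) against that in DMSO (x axis), 1 point per gene without *TUP1*, with a dashed line at equal values. The 45 genes called for a larger value in rapamycin (red) include *SPG4*, *POT1* and *PHO89*, and the 22 called for a smaller one (blue) include *PUT4*, *CSS1* and *OPT2*.

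The maltose, seripauperin, flocculation and *DAN*/*TIR* lists had members called higher in both treatments. These were 9, 14, 4 and 7 of their 11, 21, 7 and 8 members in rapamycin and 9, 14, 5 and 6 in DMSO. The list medians were 2.66, 1.43, 1.60 and 1.83 in rapamycin and 2.04, 1.47, 1.76 and 1.74 in DMSO. None of the members was called for the difference, which is near the share of 1.16% over all genes. Among the members named here, the difference passed the p threshold without the fold threshold in *IMA2*, at 0.43 (adjusted p = 0.00522), and *FLO10*, at 0.58 (adjusted p = 0.0218). *MAL12*, for example, was 4.15 in rapamycin and 4.26 in DMSO, a difference of -0.12 with a standard error of 0.09. The strain differences of *OYE3*, *CYC7*, *GAC1* and *SUT1* were larger in rapamycin than in DMSO, by 1.33, 1.02, 1.07 and 1.08. From DMSO to rapamycin, *OYE3*, *CYC7* and *GAC1* changed by 1.47, 1.71 and 0.93 in *tup1Δ*. *SUT1* instead changed by -0.35 in *tup1Δ* and by -1.44 in WT.

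Stationary-phase genes had the difference called in 5 of 9 members, the most of any list, against 1.16% of all genes. The lists were chosen with earlier results of these data known, so this rank is a description only. *SPG4* (YMR107W), needed for survival at high temperature in stationary phase, read 8.15, 8.09, 8.18 and 8.18 in WT and 11.61 and 11.81 in *tup1Δ* in rapamycin, and 8.10, 8.06, 8.04 and 8.03 and 8.38 and 8.35 in DMSO. The *tup1Δ* arrays in rapamycin stood alone, and the other 10 lay at or below 8.38. The strain difference was 3.56 (standard error 0.06, adjusted p = 4.6e-12) in rapamycin and 0.30 in DMSO, and the difference of 3.26 had an adjusted p of 4.33e-09. *FMP45* (YDL222C), a membrane protein needed in sporulation, read 9.28, 9.41, 9.22 and 9.24 in WT and 12.44 and 12.65 in *tup1Δ* in rapamycin and 10.06 and 10.11 in *tup1Δ* in DMSO. Its strain difference was 3.26 in rapamycin and 1.0 in DMSO. *HSP32* and *HSP33*, near-identical members of the Hsp31 family of chaperones, rose by 3.48 and 3.33 in rapamycin and by 2.22 and 1.95 in DMSO. Like the other near-identical copies, they may share probes. The list's median was 3.23 in rapamycin and 1.00 in DMSO, and *SPG1* was not called, at 0.10.

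*EGO4* (YNR034W-A) was also near the low end of the scale in every group but *tup1Δ* with rapamycin. It read 8.33, 8.35, 8.53 and 8.56 in WT and 11.06 and 11.33 in *tup1Δ* in rapamycin, 8.23, 8.22, 8.33 and 8.27 and 8.46 and 8.46 in DMSO. Again the *tup1Δ* arrays in rapamycin stood alone, with strain differences of 2.75 (standard error 0.09, adjusted p = 7.4e-10) and of 0.20 in DMSO.

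Peroxisomal fatty acid oxidation was marked by 1 large change among 18 genes. Of these, 3 were higher and 0 lower, against 4.52% and 0.867% of all genes, with a median of 0.30. *POT1* (YIL160C), the thiolase of the last step of beta-oxidation, read 8.39, 8.44, 8.45 and 8.40 in WT and 11.57 and 11.64 in *tup1Δ* in rapamycin, and 9.23, 9.16, 9.04 and 9.0 and 9.82 and 9.56 in DMSO. WT was lower in rapamycin than in DMSO on every array, *tup1Δ* was higher, and the strain difference went from 0.58 in DMSO to 3.18 (standard error 0.08, adjusted p = 1.49e-10). *CAT2*, a carnitine acetyltransferase, rose by 2.10 and *FAA2*, a fatty acyl-CoA synthetase, by 1.04, neither called for a difference between treatments. Without the fold threshold, that difference passed the p threshold in both, at 0.93 (adjusted p = 0.000841) and 0.36 (adjusted p = 0.0482). The activator *OAF1* was at 0.00.

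The phosphate transporter *PHO89* (YBR296C) reached its strain difference in another way. It read 13.59, 13.73, 13.12 and 12.94 in WT and 13.68 and 13.83 in *tup1Δ* in DMSO, and 10.18, 10.18, 9.61 and 9.60 and 12.98 and 13.06 in rapamycin. From DMSO to rapamycin the value changed by -3.45 in WT and by -0.74 in *tup1Δ*, so the strains, 0.41 apart in DMSO, were 3.12 (standard error 0.23, adjusted p = 1.28e-06) apart. WT replicates 1 and 2 were above 3 and 4, and the rise was 2.84 against the former alone and 3.41 against the latter. The near-identical acid phosphatases *PHO11* and *PHO12* rose by 1.38 and 1.49, but their differences between treatments had adjusted p of 0.175 and 0.186. These 3 were the called genes of the 15 in the phosphate list, whose median was 0.17. *PHO5*, the main acid phosphatase, was at 0.05.

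**Figure D4:**
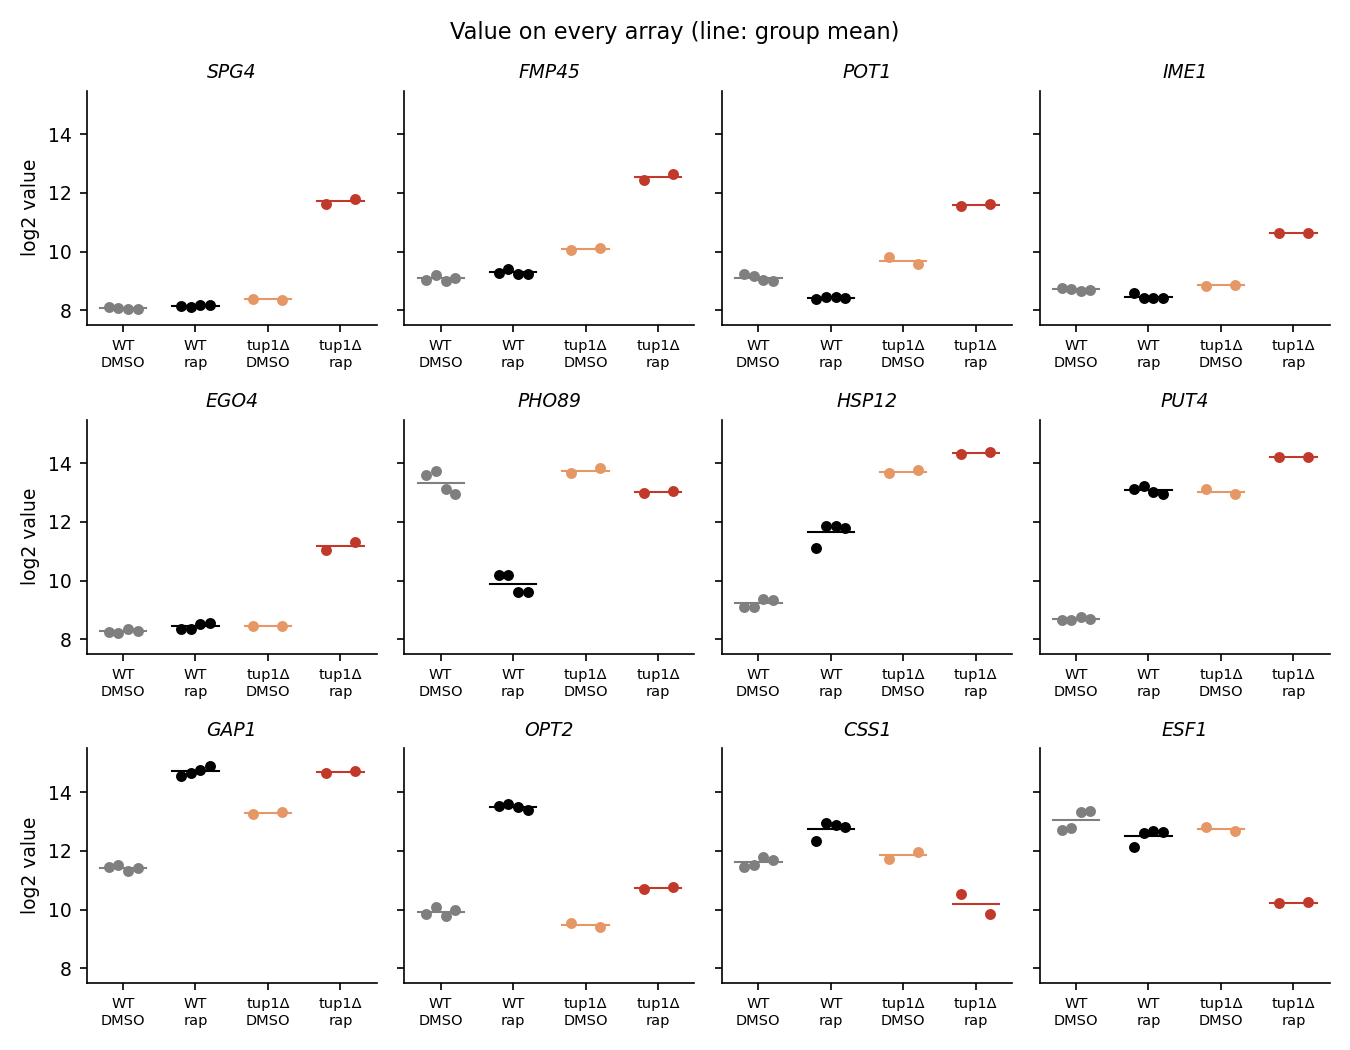
Log2 value (y axis) of 12 genes on every array, in 4 groups (x axis; rap, rapamycin), 4 arrays of WT and 2 of *tup1Δ* per treatment, with the group mean as a line. *SPG4*, *FMP45*, *POT1*, *IME1* and *EGO4* stand high in *tup1Δ* with rapamycin, and *OPT2*, *CSS1* and *ESF1* stand between 9.85 and 10.78 there.

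*IME1* (YJR094C), the activator that starts meiosis in diploids, read 8.59, 8.41, 8.41 and 8.43 in WT and 10.64 and 10.65 in *tup1Δ* in rapamycin, and 8.77, 8.73, 8.66 and 8.68 and 8.84 and 8.86 in DMSO. The strains lay close to each other in DMSO and apart in rapamycin, with differences of 0.14 and 2.18 (standard error 0.06, adjusted p = 2.62e-10). Of the 17 meiosis and sporulation genes, 3 were higher and 0 lower, against 4.52% and 0.867% of all genes, with a median of -0.02. The spore wall genes *SPS100* and *DIT1* rose by 1.99 and 1.22, and *SPS100* also passed the test of the difference. Other meiotic markers were not called: *IME2*, a kinase that Ime1 induces, was at 0.14, *NDT80*, the activator of mid-meiosis, at -0.53, *SPO11* at -0.39, *HOP1* at 0.21, *DMC1* at -0.02, *SPS4* at -0.42 and *SMK1* at -0.36.

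Genes for poor nitrogen sources, which TORC1 inhibition releases, had calls in both directions between the strains in rapamycin: of 30 genes, 1 was higher and 2 were lower, against 4.52% and 0.867% of all genes, with a median of -0.03. *GAP1* (YKR039W), the general amino acid permease, read 14.56, 14.65, 14.76 and 14.89 in WT and 14.67 and 14.74 in *tup1Δ* in rapamycin, with the *tup1Δ* values inside the WT range. In DMSO it read 11.47, 11.52, 11.32 and 11.41 and 13.26 and 13.33. A strain difference of 1.86 there had become -0.01, and the change of -1.88 had an adjusted p of 6.58e-06. In rapamycin both strains had *GAP1* near the top of the scale, at percentiles 99.3 and 99.5 of all genes. Whether the arrays still separate levels that high was not tested. The proline permease *PUT4* (YOR348C) read 8.65, 8.66, 8.74 and 8.68 in WT and 13.11 and 12.95 in *tup1Δ* in DMSO. In rapamycin it read 13.12, 13.23, 13.03 and 12.95 and 14.23 and 14.23, still apart by 1.15 (standard error 0.08, adjusted p = 5.04e-07), with a change of -3.20 from the DMSO difference. Of the 30 genes, 4 were called for a smaller value in rapamycin and 0 for a larger one. The shares of all genes called for that difference were 0.381% and 0.78%. The allantoicase *DAL2* was lower in *tup1Δ* at -1.15, as was *GDH2*, the glutamate dehydrogenase that releases ammonium, at -1.13, while *PUT2* of proline breakdown was at 0.00. The value of *DAL2* was -0.94 against WT replicates 1 and 2 alone and that of *GDH2* was -0.96 against replicates 3 and 4 alone, both inside the fold threshold.

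*OPT2* (YPR194C), an oligopeptide transporter, had the largest fall after *TUP1*. It read 13.53, 13.60, 13.49 and 13.40 in WT and 10.69 and 10.78 in *tup1Δ* in rapamycin, and 9.84, 10.09, 9.79 and 9.97 and 9.55 and 9.42 in DMSO. From DMSO to rapamycin it changed by 3.58 in WT and by 1.25 in *tup1Δ*, which left the strains -2.77 (standard error 0.09, adjusted p = 7.31e-10) apart. It was the only call among 9 peptide and other permeases, whose median was 0.23, and *AGP2* of that list was at 0.15. *HMX1* (YLR205C), a heme oxygenase of the iron regulon, likewise read 9.58, 9.39, 9.41 and 9.49 in WT and 8.44 and 8.48 in *tup1Δ* in rapamycin, and 8.29, 8.31, 8.18 and 8.22 and 8.22 and 8.30 in DMSO. Its fold change of -1.0 lay at the threshold and its difference between treatments of -1.02 passed the test. Of the 18 iron genes, 2 were higher and 1 lower, against 4.52% and 0.867% of all genes, with a median of -0.04. *FRE4*, a reductase for iron held by siderophores, rose by 1.86, and *FIT2*, a cell wall mannoprotein, by 1.40. For *FIT2*, WT read 10.02, 9.76, 9.03 and 9.06, and its rise was 0.98 against replicates 1 and 2 alone, inside the threshold, and 1.82 against 3 and 4 alone. Its adjusted p was 0.0704 without *tup1Δ* replicate 1 and 0.0603 without replicate 2, and *HMX1* dropped under the fold threshold, to -0.97 and -0.98, without WT or *tup1Δ* replicate 1, and just under it without WT replicate 4. It was -0.91 relative to the median fold change of all genes.

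*CSS1* (YIL169C, chromosome IX) and *ESF1* (YDR365C, chromosome IV) were lower in *tup1Δ* with rapamycin, and neither strain difference was called in DMSO. *CSS1* read 12.34, 12.94, 12.89 and 12.83 in WT and 10.54 and 9.85 in *tup1Δ* in rapamycin, and 11.44, 11.52, 11.80 and 11.70 and 11.74 and 11.98 in DMSO. From DMSO to rapamycin it changed by 1.13 in WT and by -1.67 in *tup1Δ*, and the strain difference in rapamycin was -2.55 (standard error 0.20, adjusted p = 2.1e-06). *ESF1*, a nucleolar protein of small-subunit rRNA processing, read 12.12, 12.60, 12.69 and 12.65 in WT and 10.21 and 10.25 in *tup1Δ* in rapamycin, and 12.71, 12.77, 13.33 and 13.37 and 12.81 and 12.69 in DMSO. All groups but *tup1Δ* in rapamycin were above 12, and the strain difference was -2.29 (standard error 0.21, adjusted p = 6.64e-06). *ESF1* was the only gene called among 50 for ribosome biogenesis, whose median was -0.13, although 2 were called higher without *tup1Δ* replicate 2, and *RRN3*, an initiation factor of RNA polymerase I, was at 0.00. On both genes WT replicate 1 was the lowest of the 4.

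Some genes of mating-competent cells were lower in *tup1Δ*. *HO* (YDL227C), the endonuclease of mating-type switching, read 10.84, 11.04, 10.51 and 10.60 in WT and 8.68 and 8.90 in *tup1Δ*, a fold change of -1.96 (standard error 0.12, adjusted p = 3.05e-07). Of 14 haploid and pheromone-response genes, 4 were lower and 0 higher, against 0.867% and 4.52% of all genes, with a median of -0.33. Besides *HO* these were *SST2*, which ends pheromone signaling, at -1.45, the cell fusion gene *FUS1* at -1.39, and *AGA1*, the anchor of a-agglutinin, at -1.07. Of the 6 a-cell genes, 3 were lower and 0 higher, with a median of -0.76. *BAR1*, the protease that degrades alpha factor, read 13.36, 13.41, 13.44 and 13.54 in WT and 12.47 and 12.23 in *tup1Δ*, a fold change of -1.08. *AGA2* read 11.58, 11.86, 12.42 and 12.33 in WT and 10.91 and 10.48 in *tup1Δ*, and *MFA1*, an a-factor gene, read 11.28, 11.11, 11.78 and 11.82 and 10.53 and 10.38. *AGA2* fell by 1.35, or by 1.02 and 1.68 against the first and second pair of WT replicates, and *MFA1* fell by 1.04, or by 0.74 and 1.34. None of the 3 a-cell calls held without *tup1Δ* replicate 2, where *AGA2* had an adjusted p of 0.0671 and *BAR1* and *MFA1* were both at -0.96. *MFA1* was also under the fold threshold without WT replicate 3 or 4, at -0.95 and -0.93. When fold changes were taken relative to the median over all genes, *AGA1*, *BAR1* and *MFA1* were at -0.98, -0.99 and -0.95 and not called, which left 1 a-cell gene called lower. No mating gene of these lists was called for a difference between treatments, compared with 1.16% of all genes.

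The other large falls were mostly present in both treatments. *ARO10* (YDR380W), a decarboxylase of amino acid breakdown to fusel alcohols, read 13.69, 13.85, 13.59 and 13.72 in WT and 11.63 and 11.87 in *tup1Δ* in rapamycin, a fold change of -1.96 there and of -1.58 in DMSO. *GPX2*, a glutathione peroxidase, was at -1.70 in rapamycin and -1.98 in DMSO. *KTR2*, a mannosyltransferase of the Golgi, was at -1.62 and -1.19, and *NDJ1*, a telomere protein of meiosis, at -1.49 and -1.82. *UPA1* differed, with -1.5 in rapamycin and -0.09 in DMSO, but the change between treatments had an adjusted p of 0.155. Its WT values in rapamycin were 11.13, 10.98, 11.68 and 11.67, again higher in the second pair, and without *tup1Δ* replicate 1 its adjusted p was 0.0512.

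Among the falls, 20 of 50 genes carried only a systematic name, compared with 32 of the 261 rises and 564 of all genes. YDR170W-A read 12.58, 13.36, 13.44 and 13.48 in WT and 11.04 and 10.63 in *tup1Δ*, with WT replicate 1 below the other 3 WT arrays, and the fold change was -2.38 (standard error 0.31, adjusted p = 0.000136). YBL005W-A, YMR046C and YNL284C-A had fold changes of -2.22, -2.21 and -1.98 from WT values of 14.06 to 14.67, near the top of the scale. YCL021W-A was at -1.59. Whether any of these genes share probes was not tested, so they may not be separate changes. All 5 were also called lower in DMSO, with fold changes of -2.53, -1.99, -2.04, -1.79 and -2.51 in the same order. None was called for the difference, although that of YCL021W-A, at 0.92, passed the p threshold (adjusted p = 0.00367).

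By the order of genes along the chromosomes, rises were most frequent at the ends. Of the 274 measured genes within 10 genes of a chromosome end, 63 (23.0%) were higher in *tup1Δ* and 3 were lower, compared with 197 of 5468 other genes (3.6%) higher. The maltose, seripauperin, flocculation, *DAN*/*TIR* and hexose transporter lists hold many end genes, and without them 38 of 240 (15.8%) were higher. The share was 26.4% in genes 1 to 5 from an end, 20.1% in genes 6 to 10, 10.5% in genes 11 to 15 and 5.16% in genes 16 to 20, and it lay between 1.45% and 4.4% further in. No test was made of these shares, since neighbouring genes and near-identical copies are not independent.

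**Figure D5:**
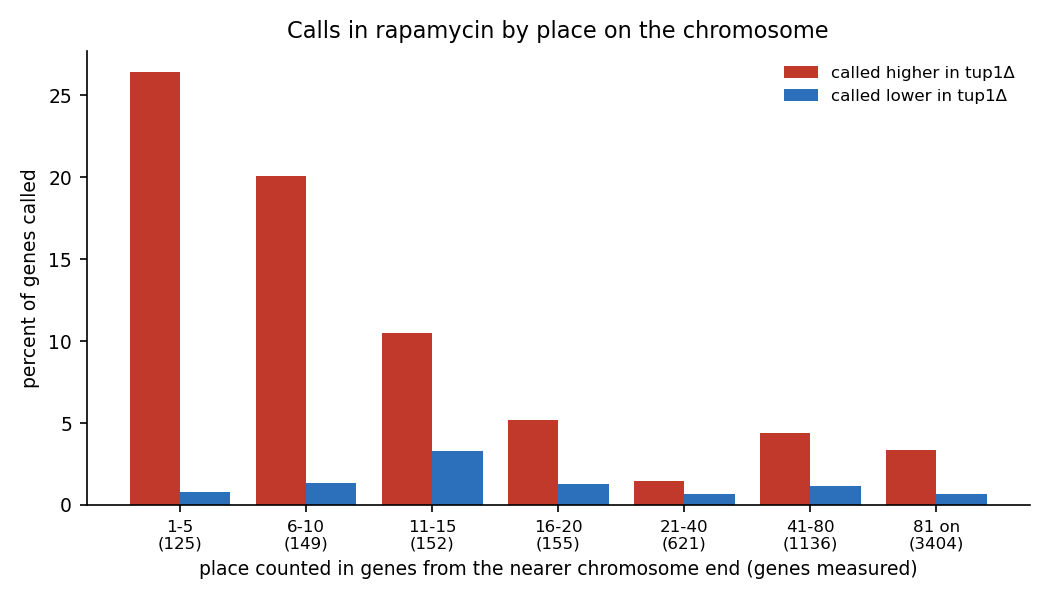
Percent of measured genes called higher (red) or lower (blue) in *tup1Δ* in rapamycin (y axis) by their place counted in genes from the nearer chromosome end (x axis, genes measured in parentheses). Rises go from 26.4% in the outermost 5 genes to 5.16% in genes 16 to 20, and falls stay at or under 3.29%.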

How the data were processed

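The authors quantified the signals of 12 one-color arrays with NimbleScan, applied Robust Multi-array Average (RMA) normalization jointly with further arrays from the laboratory, and deposited a single log2 value for each gene on each array. No probe signal or detection flag was used here. Of 5872 entries, 103 were empty on every array, which left 5769 genes, 5763 of them named through a table of the R64 assembly that served for names and gene order alone. The log2 values were taken as they stood into limma 3.58.1 (R 4.3.3), where lmFit estimated the 4 group means and eBayes moderated the variances, with Benjamini-Hochberg adjustment over all genes. The methods name limma and give no threshold.

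Named genes were *TUP1* and its neighbours, the 15 largest rises and 15 largest falls in rapamycin without overlap, the 4 largest calls and the smallest change in each gene list, the 5 largest differences between treatments in each direction, and strain and cell type markers. Members and lists were chosen with earlier results of these data known. A planned search of promoters for motifs was not made, since no sequence was used here. WT numbers mark cultures divided between treatments, and the deviations of such arrays from their group means correlated at 0.119 to 0.745. WT and *tup1Δ* share only a number. The fit was tested on simulated data. Alternatives covered normalization, dim genes, thresholds, blocks, WT subsets and each array omitted singly.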

Additional observations from a re-analysis of the deposited data

Results flagged for a closer look

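By the interaction term in limma, the strain difference in rapamycin departed from that in DMSO in 22 of the 129 named genes. The share over all genes was 1.16%, but the 5 largest differences in each direction were named for this same value. The count therefore only describes the named genes. The departure is given here as the rapamycin log2 fold change minus the DMSO one. It was positive for *SPG4* at 3.26, *PHO89* at 2.71, *POT1* at 2.60, *EGO4* at 2.55, *FMP45* at 2.26, *IME1* at 2.04 and *RTC3* at 1.53. It was also positive for *HSP33* at 1.37, *OYE3* at 1.33, *HSP32* and *SPS100* at 1.26 each, *HXT13* at 1.17, *SUT1* at 1.08, *GAC1* at 1.07 and *CYC7* at 1.02. It was negative for *PUT4* at -3.20, *CSS1* at -2.80, *OPT2* at -2.33, *ESF1* at -1.99, *GAP1* at -1.88, *HSP12* at -1.79 and *HMX1* at -1.02.

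On 7 of the 129 named genes, 1 of the 4 WT arrays in rapamycin lay far from the others, as the gap to its nearest neighbour divided by the range of the 4. Chance would give about 6.45 if arrays and genes were independent. Replicates 3 and 4 were closer to each other than any other pair, with an SD of differences of 0.0643 compared with 0.214 to 0.268. The 6.45 is therefore no measure for the 7, of which 6 were on replicate 1. Replicate 1 was far below the others for YMR046C, with a gap of 0.962 of the range, YBL005W-A, with 0.938, *HSP12*, with 0.908, YDR170W-A, with 0.873, and *ESF1*, with 0.848. It was far above them for *IME1*, with 0.858. Replicate 2 was far below the others for YCL021W-A, with 0.829.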

How the results depend on the processing

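The log2 values have no detection flags, so whether a gene near 8 was detected is not known, and the number of arrays limits precision. The number of genes called in rapamycin depended most on the fold threshold and on dim genes. It was 2519 with no fold threshold, where 37.1% were higher, 168 at a log2 threshold of 1.5, and 198 without the dimmest 25% of genes, a setting that left 114 of the 311 calls untested. In DMSO it was 2457 with no fold threshold and 148 at 1.5. The difference between treatments was called in 333 and 26 genes at these thresholds and in 32 without the dim genes, and both treatments shared 1669, 113 and 127 calls. Leaving out 1 array at a time, the counts were 301 to 324 in rapamycin, 81.8% to 85.4% of them higher, 262 to 270 in DMSO, 57 to 72 for the difference and 194 to 201 in both treatments. Taking fold changes relative to their median over all genes gave 325 calls, 289 of them higher. With only WT replicates 1 and 2 there were 309, of which 284 were among the 311, and with only 3 and 4 there were 348, of which 291 were. The main fit counted replicates 3 and 4, the closest WT pair, as separate samples, and with them averaged as 1 sample there were 301. With culture as a random replicate block there were 313, including all 311, and with the replicate number as a fixed replicate block 299, 283 of them shared, while same-numbered WT and *tup1Δ* arrays deviated from their group means with correlations of 0.0428 and -0.202. Without the dimmest 25% of genes, the stationary-phase, peroxisomal and meiosis lists had 0 calls, since their called members were not tested.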
